A study of Mus musculus with 12 samples.

Results

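Chromatin accessibility was examined at 9 genes of the myogenic transcription factors, Myod1, Myf5, Myf6, Myog, Mef2a, Mef2c, Mef2d, Pax3 and Pax7, in mouse embryonic fibroblasts. Members were all peaks of the deposited ATAC-seq table that overlapped one of these genes or the 25 kb on either side of it, which gave 107 of 176680 peaks. ATAC-seq counts fragments that the Tn5 transposase cuts from open chromatin. The fibroblasts came from wild-type C57BL/6N embryos at E13.5 and received lentiviral vectors whose transgenes were switched on with doxycycline until collection on day 2. The series holds 12 libraries in 4 groups of 3: MEF (the doxycycline-responsive activator rtTA alone), Prox1_OE (rtTA with Prox1), 4in1_GFP_OE (rtTA, the 4in1 vector and GFP) and 4in1_Prox1_OE (rtTA, the 4in1 vector and FLAG-tagged mouse Prox1). The 4in1 vector carries the reprogramming factors that drive fibroblasts towards hepatocytes, and Prox1 is a homeodomain transcription factor of hepatocytes. Only 4in1_GFP_OE and 4in1_Prox1_OE have a column in the table used here, so the comparison asks how chromatin at the muscle factor genes differed when Prox1 took the place of GFP beside 4in1. Both groups carried rtTA and 4in1 and had the same doxycycline.

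Skeletal muscle identity is set by a small hierarchy of DNA-binding proteins. Pax3 and Pax7, paired box factors, mark muscle progenitors and satellite cells. The myogenic regulatory factors Myf5, Myod1, Myf6 and Myog are basic helix-loop-helix proteins that bind E-boxes as dimers with E proteins and can convert fibroblasts into muscle cells, as Myod1 is best known for. The MEF2 factors are MADS-box proteins that act with them on muscle genes and are also active in many other tissues.

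The deposited table gives one mean per group for each peak, as a log2 of normalized reads, and no value per library. The authors' means are printed below as mean normalized reads, and a difference is 4in1_Prox1_OE minus 4in1_GFP_OE on the log2 scale, so 1 is 2-fold. No spread, confidence interval or test can be computed from such means, the depth of each library is unknown, and no difference below is shown to exceed the variation between replicates. Fewer cells with an open site and less opening in each cell cannot be told apart in bulk libraries. As a check of the labelled cells, 10 of 10 fibroblast marker genes and 0 of 5 hepatocyte marker genes had a peak within 1 kb of a start site. Another hepatocyte marker, Tf, was not matched by that symbol in the annotation and was not examined. Among the markers of other cells, the counts were 3 of 4 endothelial, 1 of 4 blood, 2 of 4 epithelial and 4 of 4 neuronal genes, and those past a 2-fold difference were Prrx1 (fibroblast, -1.27), Pecam1 (endothelial, -1.59) and Epcam (epithelial, 1.00). Their part in the differences at the muscle factor genes was not tested.

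The peaks are numbered within each gene by position along the chromosome. All 107 member windows were 201 bases wide. The sequences of 9 of them are shown. They are the promoter peak of Myod1, the highest peaks of Myod1 and Mef2c, the lowest peaks of Mef2c, Mef2a, Myf5 and Myog, and Myod1_1 and Mef2c_15, the second highest of their loci. That makes 5 windows with more signal in 4in1_Prox1_OE, at Myod1 and Mef2c, and 4 with less, at Mef2c, Mef2a, Myf5 and Myog. Myod1_1 and Mef2c_15 were added after their values were seen. Each is the plus strand of GRCm38 (mm10). Capitals mark matches on either strand to the myogenic E-box words CAGCTG and CAGGTG, the AP-1 word TGANTCA, the TEAD word GGAATG, the FOXA word TGTTTNC, and the longer MEF2 and CTCF motifs.
Windows with more signal in 4in1_Prox1_OE
Myod1_1, chr7:46351944-46352144: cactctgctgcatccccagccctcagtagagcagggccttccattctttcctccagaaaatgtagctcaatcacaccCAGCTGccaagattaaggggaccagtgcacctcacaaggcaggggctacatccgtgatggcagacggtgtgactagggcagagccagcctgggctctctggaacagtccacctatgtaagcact
Myod1_2, chr7:46377063-46377263: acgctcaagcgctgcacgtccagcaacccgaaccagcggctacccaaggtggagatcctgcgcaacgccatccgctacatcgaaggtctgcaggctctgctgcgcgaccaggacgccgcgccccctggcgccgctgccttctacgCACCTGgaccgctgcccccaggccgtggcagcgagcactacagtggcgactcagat
Myod1_7, chr7:46403749-46403949: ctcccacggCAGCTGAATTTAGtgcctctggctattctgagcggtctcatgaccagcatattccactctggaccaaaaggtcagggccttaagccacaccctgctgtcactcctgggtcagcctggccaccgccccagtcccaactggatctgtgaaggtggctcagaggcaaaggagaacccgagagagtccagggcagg
Mef2c_15, chr13:83609175-83609375: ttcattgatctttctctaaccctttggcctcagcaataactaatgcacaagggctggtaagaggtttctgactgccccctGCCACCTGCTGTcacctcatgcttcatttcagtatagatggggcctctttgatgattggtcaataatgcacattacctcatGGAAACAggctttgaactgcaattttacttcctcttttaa
Mef2c_17, chr13:83624363-83624563: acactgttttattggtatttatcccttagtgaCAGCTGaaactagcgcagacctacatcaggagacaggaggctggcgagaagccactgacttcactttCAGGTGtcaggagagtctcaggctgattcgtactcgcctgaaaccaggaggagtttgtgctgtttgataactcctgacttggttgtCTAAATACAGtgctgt
Windows with less signal in 4in1_Prox1_OE
Mef2c_12, chr13:83588292-83588492: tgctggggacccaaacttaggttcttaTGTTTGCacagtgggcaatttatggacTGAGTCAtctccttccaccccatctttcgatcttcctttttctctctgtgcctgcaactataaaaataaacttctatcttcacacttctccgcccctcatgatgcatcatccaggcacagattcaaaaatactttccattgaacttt
Mef2a_12, chr7:67287550-67287750: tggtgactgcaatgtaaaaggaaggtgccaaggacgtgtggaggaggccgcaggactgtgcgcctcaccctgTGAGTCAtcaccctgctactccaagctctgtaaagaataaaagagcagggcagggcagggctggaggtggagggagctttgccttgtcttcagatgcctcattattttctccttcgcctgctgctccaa
Myf5_1, chr10:107471461-107471661: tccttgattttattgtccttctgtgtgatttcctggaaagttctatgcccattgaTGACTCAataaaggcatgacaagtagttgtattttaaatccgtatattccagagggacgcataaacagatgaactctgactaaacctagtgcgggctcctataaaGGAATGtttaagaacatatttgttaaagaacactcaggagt
Myog_3, chr1:134288344-134288544: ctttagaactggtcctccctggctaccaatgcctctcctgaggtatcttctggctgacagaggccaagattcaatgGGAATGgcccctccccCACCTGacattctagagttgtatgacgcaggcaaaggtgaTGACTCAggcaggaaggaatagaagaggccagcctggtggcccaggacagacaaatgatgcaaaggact

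All 5 windows with more signal hold a myogenic E-box word. In Myod1_7 the E-box overlaps a MEF2 match, in Mef2c_17 a pair of E-boxes stands with a MEF2 match near the window's end, and in Mef2c_15 the E-box lies inside a CTCF match. All 4 windows with less signal hold an AP-1 word, and only Myog_3 among them holds a myogenic E-box as well. All but the Myod1 promoter were picked by their differences within chosen loci, so the words they share cannot be read as a result. Over all peaks, 25.0% hold a myogenic E-box word and 28.8% the AP-1 word. Other windows do not share these words. Mef2a_9, Pax7_5 and Pax7_6, which were also higher by at least 1, hold no myogenic E-box. Mef2a_9, at 1.78, lay above all the Myod1 windows shown. Pax3_5, the lowest peak of Pax3 and lower than Myog_3, holds none of the words or motifs searched. Only 11 of the 23 member peaks lower by at least 1 hold an AP-1 word. A match shows that the letters are there and does not show that a protein was bound.

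Over the 107 member peaks, 23 were lower in 4in1_Prox1_OE by at least 1, which is 21.5% of them beside 24.4% of all peaks in the table. Another 8 were higher by at least 1, or 7.48% beside 8.33% of all peaks, and 76 lay between. Both shares were close to the background of the whole table. The median difference was -0.28 for member peaks and -0.42 for all peaks, so the table as a whole was shifted to lower values in 4in1_Prox1_OE. When 0 was placed at the median of all peaks, which is called centred from here on, the member median turned to 0.14 and 27 of the 107 turned from below to above 0. Then 5 member peaks (4.67%) were lower and 18 (16.8%) higher by at least 1, beside 8.64% and 13.4% of all peaks. Centring adds the same constant to every difference, so it can only lower the first count and raise the second. The mean normalized reads of the member peaks summed to 16808 in 4in1_GFP_OE. In 4in1_Prox1_OE they summed to 13431, which is 0.799 of the former, and over all peaks that ratio was 0.751.

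**Figure D1:**
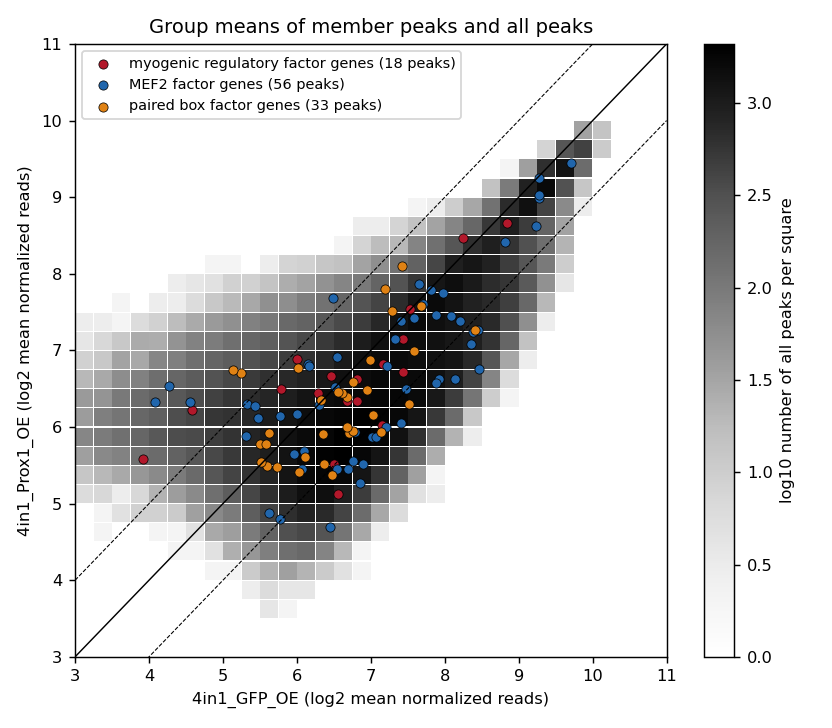
Each coloured point is 1 of the 107 member peaks at its group mean in 4in1_GFP_OE (x axis) and 4in1_Prox1_OE (y axis), both as log2 mean normalized reads, over grey squares that show the number of all peaks on a log10 scale, for means within the axes. The solid line marks equal means and the dashed lines a difference of 1 either way; 23 member peaks lie on or below the lower line and 8 on or above the upper one.

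The loci differed in their make-up. The myogenic regulatory factor genes held 18 peaks, of which 2 (11.1%) were lower and 2 (11.1%) higher by at least 1. Their median of -0.19 turned to 0.23 when centred. The MEF2 genes held 56 peaks, 17 (30.4%) lower and 4 (7.14%) higher, and their median of -0.40 turned to 0.01 when centred. Pax3 and Pax7 held 33 peaks, 4 (12.1%) lower and 2 (6.06%) higher, and their median of -0.18 turned to 0.24. The shares over all peaks were 24.4% lower and 8.33% higher. Centring also moved the counts, to 1 lower and 4 higher at the myogenic regulatory factor genes and 4 lower and 9 higher at the MEF2 genes. Pax3 and Pax7 then had 0 lower and 5 higher. The centred shares of all peaks were 8.64% lower and 13.4% higher. Over all peaks the same constant turned more lower than higher peaks into more higher than lower ones. With 0 at the median of the strongest 10% of peaks, the MEF2 genes had 9 lower and 6 higher. The myogenic regulatory factor genes then had 1 lower and 3 higher, and Pax3 and Pax7 had 0 lower and 3 higher. Of all peaks, 13.9% were then lower and 11.2% higher. The difference between these 3 groups of genes was not tested.

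**Figure D2:**
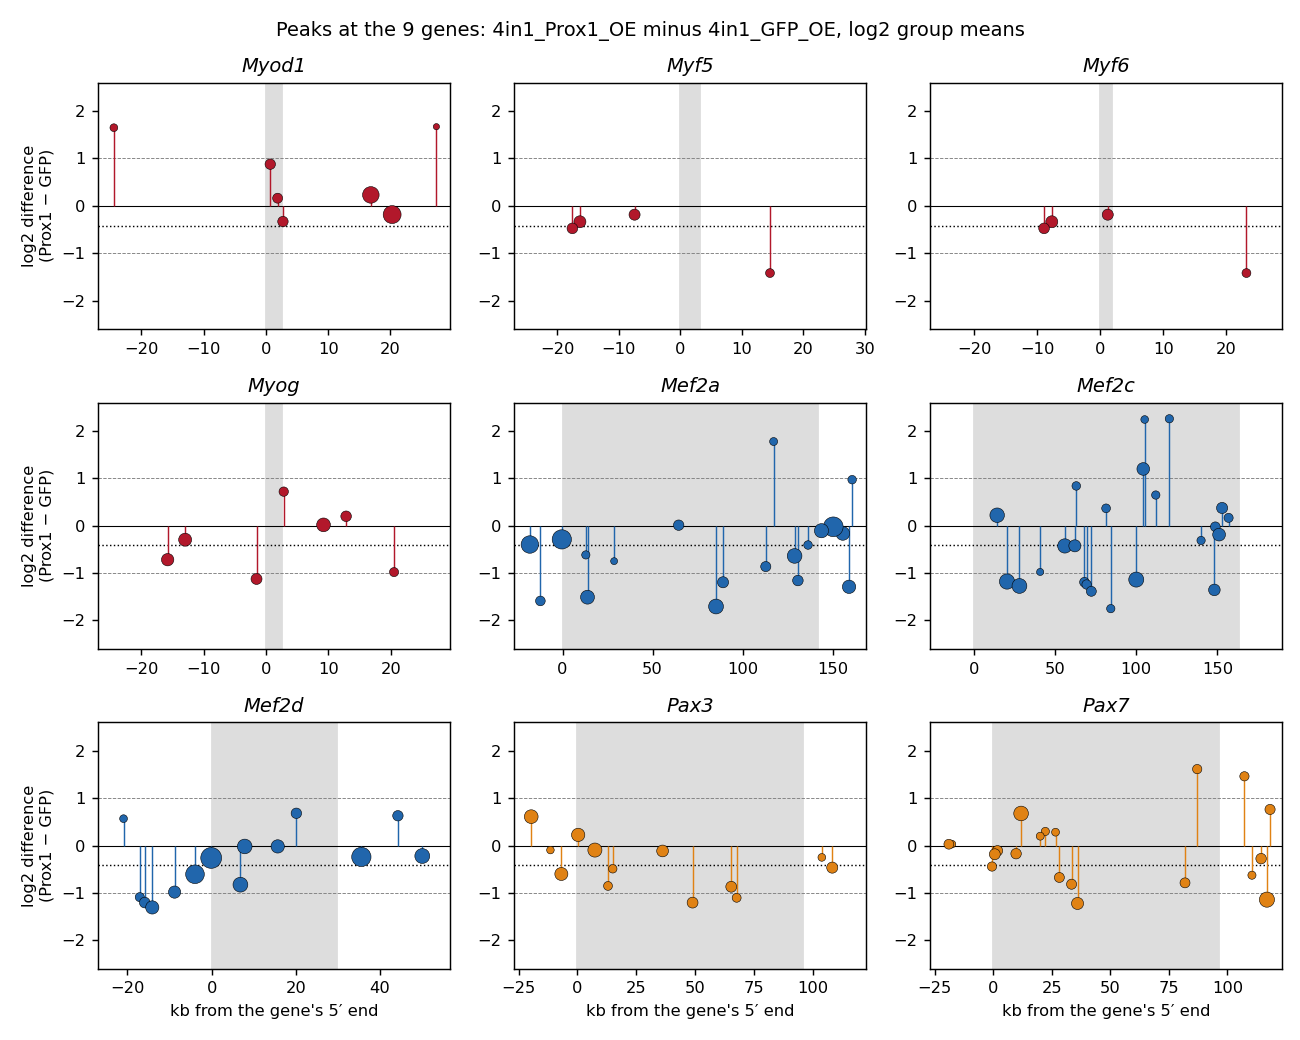
One panel per gene shows each member peak by its distance in kb from the gene's 5′ end (x axis) and its log2 difference, 4in1_Prox1_OE minus 4in1_GFP_OE (y axis), with larger points for stronger peaks and the gene body shaded in grey. The dotted line is the median of all peaks (-0.42) and the dashed lines are -1 and 1; Myod1 points lie above the dotted line, and Mef2c shows peaks past both dashed lines within its body. Myf5 and Myf6 share the same 4 peaks.

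Myod1 (chr7:46376474-46379099, plus strand), the factor able on its own to turn fibroblasts into muscle cells, had the highest median of the 8 loci. Of its 7 peaks 2 were higher by at least 1 and 0 lower, and the median difference was 0.23, or 0.65 when centred, with 3 then higher and 0 lower. All 7 lay above the median of peaks of like strength, meaning all peaks in the same 10% band of mean concentration. The peak within 1 kb of the start site, Myod1_2, lies in a coding exon and had 64.3 mean normalized reads in 4in1_GFP_OE and 118 in 4in1_Prox1_OE. Its difference of 0.88 was higher than that of 90.4% of all peaks. Myod1_1, an intergenic window 24.4 kb upstream whose nearest annotated start is that of Myod1, had 23.9 and 74.9 reads, a difference of 1.65.

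The highest value at this locus, 1.67, belonged to Myod1_7, which had 15.1 and 47.9 reads. That window lies in an intron of the neighbouring potassium channel gene Kcnc1, 24.7 kb past the end of Myod1 and thus just inside the 25 kb limit, and the next peak outside the limit, 27.3 kb before Myod1, stood at 0.50. The strongest peak of the locus, Myod1_6, had 459 and 404 reads, a difference of -0.19, and lies at the promoter of Kcnc1. The second coding exon window, Myod1_3, stood at 0.16 and the window just past the gene's end, Myod1_4, at -0.33, the lowest of the locus. At Myod1 the values above the rest were thus those of weak windows and of a coding exon, while the strong peak at the Kcnc1 promoter lay near 0. The nearest window left out at any of the genes lies 25.2 kb past the end of Pax7 and had 148 and 140 reads, a difference of -0.08.

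Myf5 and Myf6, neighbours on chromosome 10 that act early in muscle progenitors and later in muscle fibres, shared all 4 of their peaks. None lay within 1 kb of either start site. Myf6_2, in a coding exon of Myf6 1.19 kb from its start, had 112 and 98.4 reads, a difference of -0.19. The strongest, Myf5_3, had 143 and 113 reads, a difference of -0.34. The lowest, Myf5_1, lies between genes 14.6 kb past the start of Myf5 and had 93.8 and 35.0 reads, a difference of -1.42, below all but 8.57% of peaks in the table. The median of the 4 was -0.41, or 0.01 when centred.

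Myog (chr1:134289989-134292548), which encodes myogenin, the regulatory factor switched on as myoblasts differentiate, had 7 peaks with a median of -0.30 that turned to 0.12 when centred. No peak lay within 1 kb of its start. The nearest upstream window, Myog_3, 1.54 kb away, had 142 and 65.1 reads, a difference of -1.12, and was the only 1 of the 7 past 1. When centred it stood at -0.71, and the counts became 0 lower and 1 higher. The window just past the gene's end, Myog_4, went the other way with 54.9 and 90.4 reads, a difference of 0.72. The strongest peak, Myog_5, 9.20 kb past the start in a coding exon of another gene, had 184 and 187 reads, a difference of 0.02.

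Mef2a (chr7:67231163-67372858, minus strand) had 19 peaks, 6 of them lower and 1 higher by at least 1, and its median of -0.62 was the lowest of the 8 loci, at -0.20 when centred, with 3 then lower and 2 higher. The promoter peak, Mef2a_17, had 619 and 506 reads, a difference of -0.29. The lowest peak, the intronic Mef2a_12, had 354 and 108 reads, a difference of -1.71, lower than in all but 2.44% of peaks. Mef2a_18, 12.3 kb upstream, stood at -1.59 with 116 and 38.5 reads, and Mef2a_15, 13.9 kb into the gene, at -1.51 with 282 and 99.2 reads. Only Mef2a_9, intronic and weak in 4in1_GFP_OE, was higher by at least 1, with 23.4 and 80.3 reads and a difference of 1.78. The strongest peak, Mef2a_4, lies at a promoter of another gene, Lysmd4, past the end of Mef2a, and had 620 and 610 reads. Mef2a_9 and Mef2a_12 lie in a stretch that the annotation also gives to Lysmd4.

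Mef2c (chr13:83504034-83667080), a regulator of muscle, heart, bone and nerve cells, held the widest spread. All 23 of its peaks lay inside the gene body, 8 were lower and 3 higher by at least 1, and the median was -0.31. When centred the median was 0.10, with 1 peak lower and 5 higher. The gene has 11 annotated start sites, and its 3 promoter peaks were all lower. Mef2c_2, the strongest peak of the gene, in a non-coding exon 20.5 kb from the gene's 5′ end, had 348 and 154 reads, a difference of -1.18 that became -0.76 when centred. Mef2c_9 and Mef2c_10, at internal start sites 69.5 and 72.4 kb into the gene, stood at -1.24 and -1.39, and the intronic Mef2c_8 beside them at -1.19. None of these 3 was past 1 when centred.

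The lowest of all 107 member peaks was Mef2c_12, in an intron 84.4 kb into the gene, with 87.2 and 25.9 reads and a difference of -1.75. The 2 highest also lie in Mef2c. Mef2c_17, 120 kb in, had 19.3 and 92.4 reads, a difference of 2.26, and Mef2c_15, 105 kb in, had 16.9 and 80.1 reads, a difference of 2.24. Mef2c_14, less than 1 kb from Mef2c_15, had 89.6 and 206 reads, a difference of 1.20, and Mef2c_16 between them and Mef2c_17 stood at 0.65. The strong window just before this stretch, Mef2c_13, 100 kb in, had 332 and 151 reads, a difference of -1.14, which was not past 1 when centred. As deposited, Mef2c_13 and Mef2c_14 were the only 1 of 47 neighbouring pairs of member peaks, at most 5 kb apart, that lay past 1 in opposite directions. Over all peaks, 2009 of 71911 such pairs did so. Of the 47 member pairs 16, or 34.0%, had differences of opposite sign, beside 35.1% of such pairs over all peaks.

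Mef2d (chr3:88142372-88172086), the MEF2 gene with the strongest promoter here, had 14 peaks, 3 lower and 0 higher by at least 1, with a median of -0.25 that turned to 0.17 when centred, with 0 then lower and 2 higher. Its promoter peak, Mef2d_7, was the strongest member peak, with 839 and 701 reads and a difference of -0.26. The 3 lower windows lie in a row upstream, Mef2d_2 at -1.09, Mef2d_3 at -1.20 and Mef2d_4 at -1.31, between 17.0 and 14.1 kb before the gene. Mef2d_4 had 236 and 95.7 reads and stood at -0.89 when centred. The highest, the intronic Mef2d_11, had 70.8 and 114 reads, a difference of 0.68.

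Pax3 (chr1:78101267-78197134, minus strand), which marks progenitors of trunk and limb muscle as well as neural crest, had 13 peaks, 2 lower and 0 higher by at least 1. The median was -0.46, or -0.05 when centred, with 0 then lower and 1 higher. The promoter peak, Pax3_10, in a coding exon, had 156 and 183 reads, a difference of 0.23. The strongest, Pax3_9, 7.44 kb into the gene, had 204 and 192 reads, a difference of -0.09. The lowest, the intronic Pax3_5, had 141 and 61.1 reads, a difference of -1.20 that became -0.79 when centred, and the highest, Pax3_13, 19.6 kb upstream, had 147 and 224 reads, a difference of 0.61.

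Pax7 (chr4:139737062-139833528, minus strand), the factor of satellite cells, had 20 peaks, 2 lower and 2 higher by at least 1, with a median of -0.14 that turned to 0.28 when centred, with 0 then lower and 4 higher. The stronger of its 2 promoter peaks, Pax7_17, in a coding exon, had 109 and 95.8 reads, a difference of -0.18. The highest peak, Pax7_6, in an intron 87.1 kb into the gene, had 35.1 and 108 reads, a difference of 1.61, and Pax7_5, past the gene's end, had 37.8 and 104 reads, a difference of 1.46. The lowest, the intronic Pax7_8, had 183 and 78.6 reads, a difference of -1.22. The strongest, Pax7_2, past the gene's end, had 340 and 154 reads, a difference of -1.14. The first of these lower windows stood at -0.80 and the other at -0.72 when centred. Pax7_14, 11.9 kb into the gene, was the strongest of the 9 Pax7 peaks above 0, with 171 and 274 reads and a difference of 0.68.

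Of the 9 genes, 6 had a peak within 1 kb of a start site. Taking the strongest for each gene, the order from high to low was Myod1 (0.88), Pax3 (0.23), Pax7 (-0.18), Mef2d (-0.26), Mef2a (-0.29) and Mef2c (-1.18), and their median was -0.22. Over all protein-coding genes, 15152 of 21911 had a promoter peak, with a median difference of -0.19, 2.70% lower and 1.17% higher by at least 1. When centred, the member median became 0.20, beside 0.20 for all peaks within 1 kb of a start site. The differences of Pax7, Mef2d and Mef2a then came to lie above 0. Mef2c stayed below 0 under each placing of 0.

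Strength went with part of this pattern. The 24 member peaks below a mean concentration of 6 on the log2 scale had a median difference of 0.24, and all peaks of that range a median of -0.07. Of these 24, 1 (4.17%) was lower and 5 (20.8%) were higher by at least 1, beside 16.8% and 21.8% of all peaks of that range. The 75 peaks from 6 to 8 had a median of -0.43, beside -0.56 for all peaks. Of these, 22 (29.3%) were lower and 3 (4.00%) higher, beside 29.3% and 5.41% of all peaks of that range. The 8 strongest, from 8 up, had a median of -0.25, beside -0.30 for all peaks. None of the 8 was past 1, beside 15.1% lower and 0.113% higher of all peaks of that range. Measured against peaks of like strength, 59 of the 107 member peaks were above and 48 below. Adding 5 reads to each mean moved the member median by less than 0.1.

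**Figure D3:**
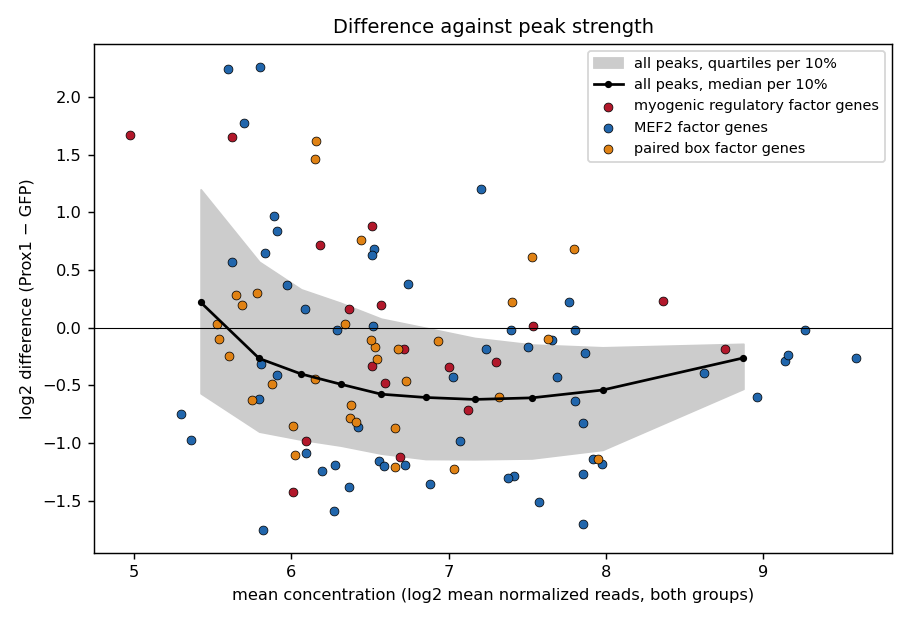
The log2 difference (y axis) of each member peak is plotted against its mean concentration over both groups in log2 mean normalized reads (x axis), with the median (black line) and quartiles (grey band) of all peaks in bands of 10% by concentration. Most member peaks above 1 are weak, and the 8 strongest lie between -0.61 and 0.23.

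The words in the member windows are given beside those in all peaks of the table. The AP-1 word, the site of Jun and Fos proteins, which are abundant regulators of fibroblast chromatin, was in 25 member peaks, or 23.4% beside 28.8% of all peaks. Those 25 had a median difference of -0.82 and the member peaks without it -0.17, while over all peaks the values were -0.82 and -0.29. It was in 11 of the 23 lower and 0 of the 8 higher member peaks, and in 46.9% of all lower and 20.0% of all higher peaks, so the lower member peaks held it about as often as lower peaks did in the table. The myogenic E-box words were in 34 member peaks, or 31.8% beside 25.0% of all peaks, with medians of -0.14 with and -0.31 without, beside -0.27 and -0.47 over all peaks. They were in 5 of the 23 lower and 5 of the 8 higher member peaks, beside 19.0% and 31.3% in the table. Any E-box, CANNTG, which includes the myogenic words, was in 71.0% of member and 68.9% of all peaks.

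Of the other words, MEF2 was in 12 member peaks, 11.2% beside 6.97% of all peaks. FOXA was in 20, 18.7% beside 16.7%, and 8 of these were lower and 2 higher, beside 26.5% and 8.93% of all peaks with that word. TEAD was in 18, 16.8% beside 20.1%, and 4 were lower and 1 higher, beside 32.5% and 7.78%. CTCF, the insulator protein's motif, was in 15, 14.0% beside 10.5%, with a median of -0.11 beside -0.18 over all peaks with it. Of the 15, 1 was lower and 1 higher, beside 5.51% and 3.89%. The PROX1 motif was in 0 member windows and in 0.305% of all peaks. MEF2, CTCF and PROX1 motifs were searched with at most 1 mismatch, and the counts describe letters in 201-base windows only. By annotation, the 9 windows in coding exons had a median of -0.02 with none past 1. The 58 in introns had -0.37, with 14 lower and 6 higher by at least 1. The 35 between genes had -0.33, with 7 lower and 2 higher. The 5 in non-coding exons had -0.26, with 2 lower, Mef2c_2 and Mef2c_9. Of all peaks of any annotation, 24.4% were lower and 8.33% higher. Shares of all peaks by annotation were not computed. All 4 medians turned to values above 0 when centred.

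Around the 9 factors, a list of 41 further genes of the myogenic programme was read at its promoters, of which 36 had a peak. The median difference was -0.18, with 3 lower and 3 higher by at least 1, or 8.33% each way beside 2.70% and 1.17% of all protein-coding promoters. That background is not matched for strength, since the 11 muscle products with a promoter peak had a median concentration of 6.92 and all protein-coding promoters one of 8.95, and weaker peaks passed 1 more often. The 16 upstream regulators and partners, such as Tcf12 and Srf, all had a peak, none past 1, with a median of -0.16. The 9 inhibitors of myogenesis, such as Id3, Twist1 and Snai1, also all had one, none past 1, with a median of -0.28. When centred, the median of the whole list became 0.24, beside 0.20 for all peaks within 1 kb of a start site. The centred medians of the regulators and of the inhibitors also lay above 0.

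The 6 promoters past 1 all belonged to muscle products, of which 11 of 16 had a peak. Chrng, the fetal subunit of the muscle acetylcholine receptor, had 54.9 and 187 reads, a difference of 1.77. Cdh15, the cadherin of myoblasts, had 129 and 291 reads, a difference of 1.17, and Ckm, muscle creatine kinase, 39.8 and 81.7 reads, a difference of 1.04. In the other direction, Tnnt3, a fast troponin T, had 107 and 47.1 reads, a difference of -1.18. Myl1, a fast myosin light chain, had 107 and 47.4 reads, a difference of -1.17, and Des, which encodes the intermediate filament desmin, 264 and 130 reads, a difference of -1.02. No peak lay within 1 kb of a start of Acta1, Myh3, Tnnc1, Chrna1 or Mymx. Muscle products thus lay at both ends. When centred, the 3 lower promoters were no longer past 1.

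**Figure D4:**
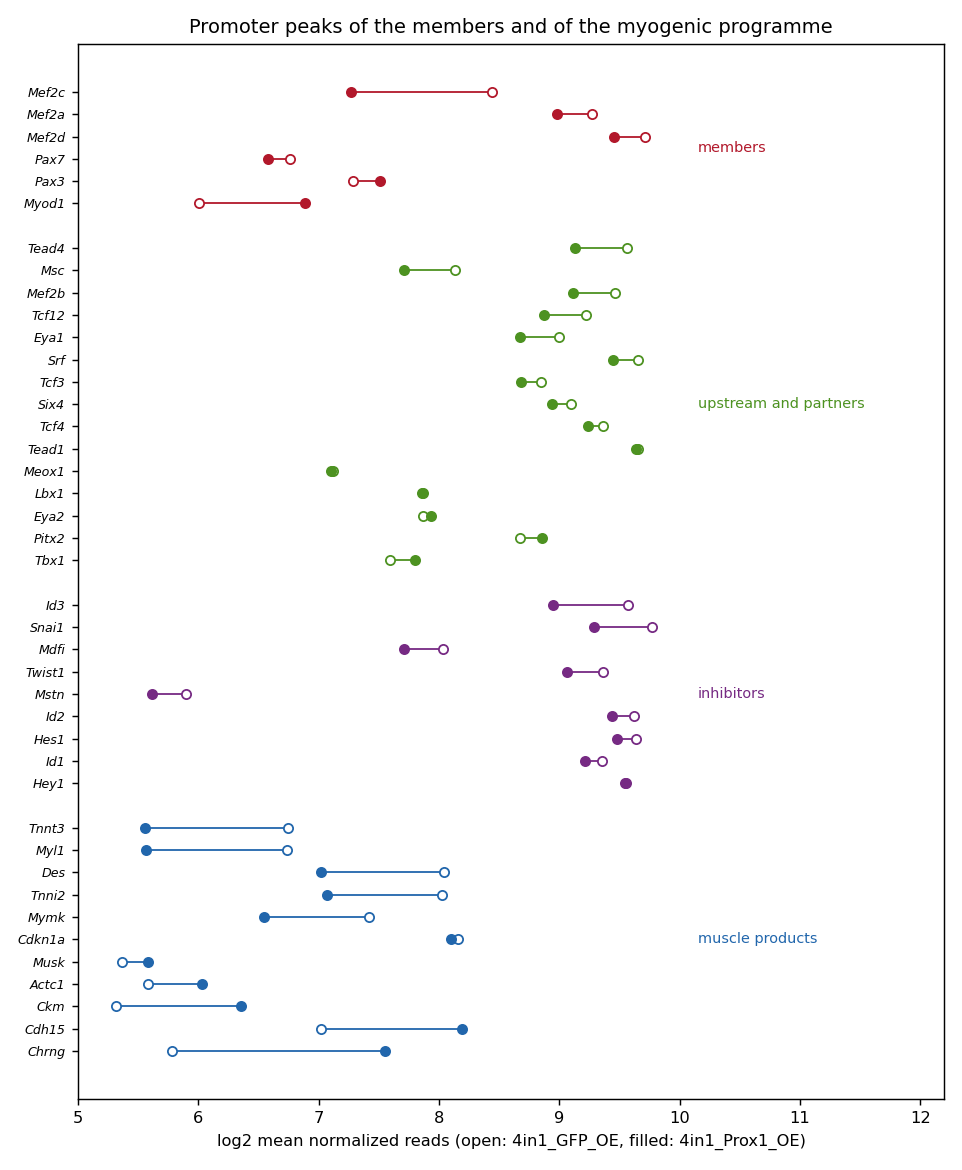
For the genes shown, each with a promoter peak, the open circle is the mean in 4in1_GFP_OE and the filled circle the mean in 4in1_Prox1_OE, in log2 mean normalized reads (x axis), grouped by role and ordered within each group by difference. Regulators and inhibitors have short lines, and among muscle products Tnnt3, Myl1 and Des lie lower and Ckm, Cdh15 and Chrng higher in 4in1_Prox1_OE by at least 1.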

How the data were processed

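ATAC-seq was measured in 12 libraries; the groups were taken from the sample titles. Per the study's methods and processing notes, reads were trimmed with Trimmomatic 0.38, aligned to mm10 with Bowtie2 2.3.4.3 and filtered with SAMtools 1.10, Picard 2.18.16 and bedtools 2.27.1. The methods name MACS2 as peak caller and the reporting summary names Genrich. The authors then built consensus peaks and compared them with DiffBind 3.4.11. The deposited concentrations are log2 values of mean normalized reads over both groups or within 1 group. For that step the methods refer to the vignette of this DiffBind version and name no normalization of their own; whether peaks were called per library is not given in the sources used here. A scaling that leaves the share of reads in peaks uncorrected would move every difference together, hence the placings of 0 tried below.

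The authors' fold change, p-value and FDR columns and their 2 lists of called regions hold the study's own comparison and were not used. Without values per library no test could be made, and the libraries entered as the authors' means. Differences of those means were computed with Python 3.11.15, pandas 2.3.3 and numpy 2.4.6 on all 176680 peaks, and the code was tested on simulated data. Genes, start sites (basic set) and annotation were from GENCODE M21, and sequences from GRCm38 were read with pysam 0.24.0. RefSeq promoter entries were found for 6 of the 9 genes, and all 8 entries equalled that genome. A single gene of the list enters its counts and is not reported here by name. Members and lists were chosen with earlier results of these data known. Peaks named were, for each gene, the promoter, strongest, lowest and highest peak, and for the list the 3 lowest and 3 highest promoters; other peaks were named after their values were seen. Alternatives changed the placing of 0, the window, the size counted, a filter on weak peaks, the promoter width and a pseudocount of 5.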

Additional observations from a re-analysis of the deposited data

How the results depend on the processing

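No paired analysis was possible because the values used are means over the libraries of a group. Leaving out a replicate and a count model were therefore not run either. The member counts and medians depended on where 0 was placed. Lower peaks (23 as reported) numbered 5 with 0 at the median of all peaks, 5 with equal totals, 10 with 0 at the median of the strongest 10% of peaks and 5 against peaks of like strength, the last chosen after seeing the data. Higher peaks (8) numbered 18 with 0 at the median of all peaks, 18 with equal totals, 12 with 0 at the median of the strongest 10% and 17 against peaks of like strength. In that order of placings, the lower shares were 4.67, 4.67, 9.35 and 4.67% beside 8.64, 8.80, 13.9 and 7.69% of all peaks, and the higher shares 16.8, 16.8, 11.2 and 15.9% beside 13.4, 13.3, 11.2 and 13.0%. The member median (-0.28) became 0.14, 0.14, -0.013 and 0.14, the promoter median (-0.22) 0.20, 0.19 and 0.041 under the first 3 placings, and -0.0068 with 0 at the median of all promoter peaks, which was also added after seeing the data, and the programme list median (-0.18) 0.24, 0.24 and 0.086. A size of 0.58 (1.5-fold) gave 40 lower (37.4%) and 18 higher peaks (16.8%), beside 42.7% and 13.5% of all peaks. Without the weakest 25% of peaks 3 of 80 were higher (3.75%), beside 4.14% of all peaks. Within gene bodies 15 of 62 were lower (24.2%) and 5 higher (8.06%). Within 10 kb 5 of 77 were higher (6.49%). Of the 68 peaks nearest to a start of a member 15 were lower (22.1%) and 4 higher (5.88%). The shares of all peaks beside these 3 sets were 24.4% lower and 8.33% higher. These last sets hold fewer peaks. Of 28 named member peaks, 7 lay past 1 under all 3 placings first listed as well as in the report, 6 no longer did under at least 1 of them and 4 came to lie past 1. Each of these 3 placings adds a positive constant to every difference, so higher peaks could not be lost. The other alternatives changed no count by over 1.5 times and no median by over 0.1. Depth per library is unknown, so weak peaks, where most higher values lie, cannot be given an error.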
